A study of Homo sapiens with 6 samples.

Results

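The 31 genes described here encode the enzymes, transporters and regulators that carry glucose into the cell, split it to pyruvate, turn pyruvate to lactate or pass it to the mitochondria, and divert glucose 6-phosphate into the pentose phosphate pathway. They were named as a list and found by symbol in a table of 63140 Ensembl genes. All 31 were matched and all 31 passed the filter on low counts, as did 17427 genes in all. The cells were HEK293T, a line derived from human embryonic kidney that carries the SV40 large T antigen. They were transfected with a miR-34a duplex (3 libraries) or with the AllStars negative control, which the labels call an siRNA for the samples and a miRNA for the series (3 libraries), and RNA was collected at 18 h. Both groups were thus transfected cells of the same line. The question of the series is how the structure of paired microRNA and target bears on repression.

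Glycolysis converts glucose to pyruvate in a chain of cytosolic reactions, and many steps have several isozymes encoded by separate genes. Proliferating cell lines commonly send much of the pyruvate to lactate through lactate dehydrogenase and export it through monocarboxylate transporters. Pyruvate dehydrogenase kinases restrain the alternative route into the mitochondria, and the transcription factor HIF1A raises many of these genes in low oxygen. A microRNA guides Argonaute proteins to mRNAs that pair with its seed, the bases near its 5′ end, which lowers the stability or translation of those mRNAs. miR-34a is induced by p53, and HK1, HK2, GPI, PDK1 and LDHA have been published as its targets.

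The guide strand has the mature sequence below, read from RefSeq (GRCh38.p14), where this mature strand lies at chr1:9151735-9151756 on the minus strand. Capitals mark the seed, positions 2 to 8 from the 5′ end.
miR-34a-5p: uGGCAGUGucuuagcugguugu

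A 3′ untranslated region (UTR) can match this seed as an 8mer (CACTGCCA), a 7mer-m8 (CACTGCC), a 7mer-A1 (ACTGCCA) or a 6mer (ACTGCC). The search ran on the sense strand of the GENCODE release 29 transcript with the longest coding sequence. Of the 30 glucose metabolism genes with a 3′ UTR of at least 50 nt, 7 held a 7mer or 8mer (23.3%), against 21.0% of the 12939 tested genes so classed. An 8mer was present in 3 of them (10.0%, against 5.27%). The 3′ UTR matches are shown because the calls are set against them further on. Each window ends at the match, which is in capitals.
LDHA 8mer: agttctgccacctctgacgcacCACTGCCA
ALDOA 8mer: aagtccatcaccctttccggcaCACTGCCA
PGD 8mer: ggacattccatgtgcctcatggCACTGCCA
HK1 7mer-m8, upstream: tgaaatgtattatcaccagcagaCACTGCC
HK1 7mer-m8, downstream: ctgccgggcctccctcccgggggCACTGCC
SLC16A1 7mer-m8: atgcattttgagtgtttatagatCACTGCC
PGAM1 7mer-m8: cctctgctcttctgcagtcaggtCACTGCC
GPI 7mer-A1: attcctggacaagaccgaggatgACTGCCA
TPI1 6mer: actaagcagcccagaagcccagtaACTGCC

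All of these matches lie in the last exon of the transcript searched (GRCh38). The LDHA match is at chr11:18407538-18407545 on the plus strand, in exon 8, and starts 257 nt after the stop codon. That of ALDOA is at chr16:30070384-30070391 (plus strand, exon 10), 172 nt after the stop codon, and that of PGD at chr1:10419811-10419818 (plus strand, exon 13), 62 nt after it. The pair in HK1 lies close together in exon 21, at chr10:69401552-69401558 and chr10:69401577-69401583 on the plus strand, and HK1 also has a 6mer nearer the stop codon, at chr10:69401156-69401161. SLC16A1 has its match at chr1:112913117-112913123 (minus strand, exon 5), 768 nt after the stop codon. In PGAM1 the match at chr10:97432937-97432943 (plus strand, exon 4) is followed by a 6mer at chr10:97432945-97432950. The GPI match is at chr19:34400669-34400675 (plus strand, exon 19), and the 6mer of TPI1 at chr12:6870447-6870452 (plus strand, exon 7), 64 nt after the stop codon.

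The libraries held 24728662 to 36650331 counts. Marker genes were read as a check on the line: all 8 listed for it, among them VIM, KRT8, KRT18, NEFM, PAX2, LHX1 and CDH2, reached 1 CPM (a count scaled to library size), although PAX2 stood at only 1.14 to 2.24 CPM. Their summed level was 606 to 659 CPM in the control libraries and 559 to 588 CPM with miR-34a; the part of this difference in the results was not tested. Markers of endothelium, hepatocytes and squamous epithelium all stayed under 1 CPM, CD3E, COL1A2 and KRT14 were at 0 in all 6 libraries, and the fibroblast markers COL1A1 (up to 27.3 CPM) and COL3A1 (up to 2.99 CPM) passed 1 CPM. Over all classed genes, 28.2% of genes whose strongest match was an 8mer fell, 17.3% with a 7mer-m8, 15.5% with a 7mer-A1, 10.0% with a 6mer and 4.87% with none.

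Of the 31 genes, 5 fell with miR-34a, 1 rose and 25 did not pass the test (edgeR quasi-likelihood test, adjusted p under 0.05 over all 17427 genes). LDHA, TPI1, ALDOA, HK1 and SLC16A1 fell, by 0.21 to 0.39 on the log2 scale, and PDK1 rose. Over all tested genes, 6.7% fell and 5.38% rose. These are mostly abundant transcripts, for which small changes are easier to call. Among the 6646 tested genes whose mean log2 CPM reached 5, 10.2% fell and 7.9% rose, and of the 25 genes of the list at that level 4 fell and 1 rose. The median log2 fold change of the 31 was -0.05, against -0.004 over all tested genes, with 21 below 0 and 10 above. In bulk RNA, fewer cells with a transcript and less of it in each cell cannot be told apart.

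**Figure D1:**
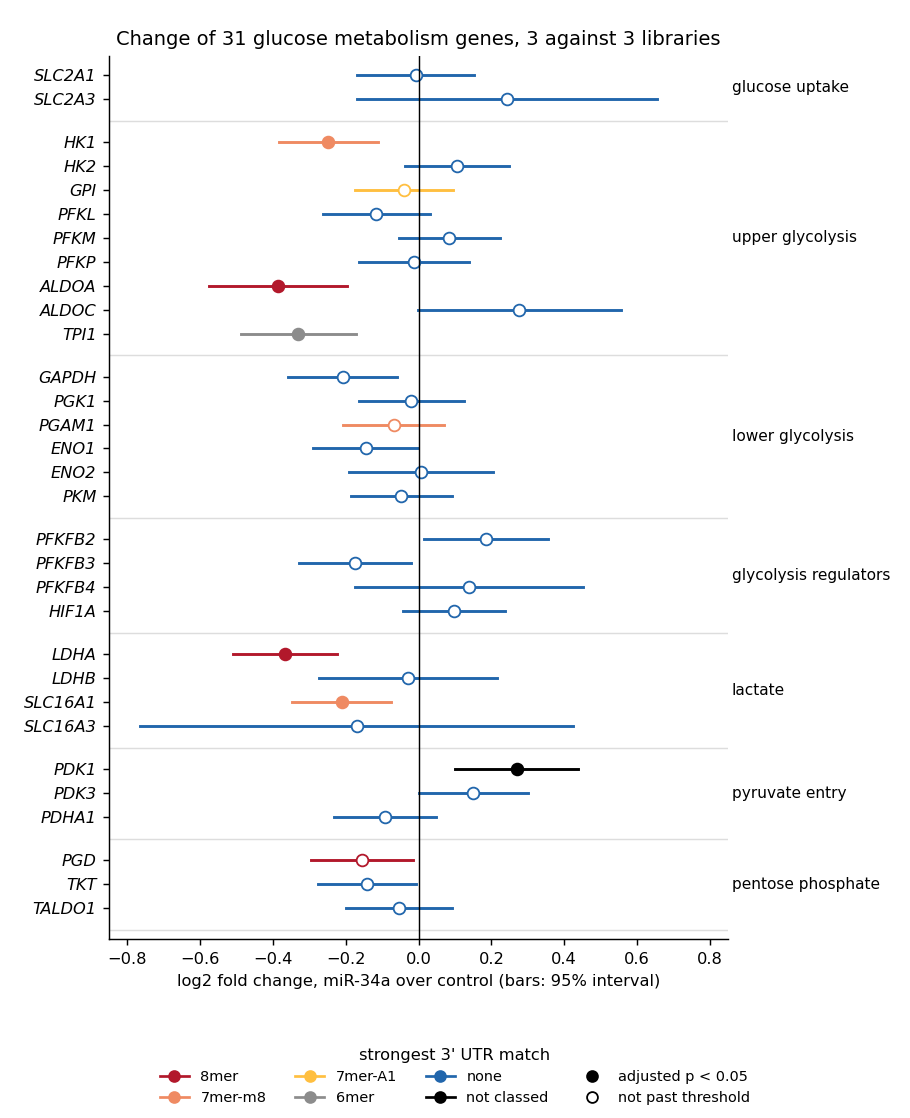
Log2 fold change (miR-34a over control, x axis) of the 31 genes grouped by role, with 95% intervals from the fit over all genes; colour gives the strongest 3′ UTR match and filled points have an adjusted p under 0.05. LDHA, ALDOA, TPI1, HK1 and SLC16A1 lie below 0 and PDK1 above it, and most other intervals span 0.

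The groups did not overlap for 10 genes that were lower with miR-34a and 3 that were higher. Over all tested genes, 14.2% were lower and 13.1% higher without overlap. Of the 25 genes not called, 7 had an unadjusted p under 0.05, 5 of them lower (GAPDH, ENO1, PFKFB3, PGD and TKT) and 2 higher (PFKFB2 and PDK3). The 31 genes together took 1.14, 1.25 and 1.20% of the counts in the control libraries and 1.10, 1.07 and 1.06% in the miR-34a libraries. Control replicate 1 was the lowest control library for 21 of the 31 genes and control replicate 2 the highest for 18, whereas no miR-34a library was lowest for more than 12 or highest for more than 13.

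Glucose enters these cells through facilitative transporters, and neither listed transporter passed the test (0 of 2 with edgeR, by unadjusted p or with DESeq2). SLC2A1, the widely expressed transporter GLUT1, read 49.4, 61.2 and 55.0 CPM in the controls and 54.6, 54.7 and 55.8 CPM with miR-34a. The miR-34a values sat inside the control range, with a log2 fold change of -0.01 (95% interval -0.17 to 0.15). SLC2A3, the high-affinity transporter GLUT3, ranged from 2.78 to 5.14 CPM (log2 fold change 0.24, 95% interval -0.17 to 0.65). Scaled to exonic length, SLC2A1 made up 95.3% of the level of the pair in the control libraries and 94.5% with miR-34a.

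Hexokinase traps glucose as glucose 6-phosphate, and of its isozymes HK1 fell and HK2 did not pass; the difference between their fold changes was not tested. HK1 read 144, 146 and 145 CPM in the controls and 117, 125 and 124 CPM with miR-34a. Every miR-34a library was below every control library, and the 3 controls were nearly identical. Its log2 fold change came to -0.25 with an SE of 0.07 (edgeR, adjusted p = 0.014); values after ± beside a log2 fold change are SEs throughout. Leaving out control replicate 3 ended the call (adjusted p = 0.058), as did leaving out miR-34a replicate 1 (0.072).

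HK2, the isozyme typical of tumours and insulin-sensitive tissues, read 131, 132 and 136 CPM in the controls and 133, 143 and 152 CPM with miR-34a. The groups overlapped, and the log2 fold change was 0.10 (95% interval -0.04 to 0.25; adjusted p = 0.39). No seed match of any kind was found in its 3′ UTR of 2418 nt, while HK1 has the pair shown above. Per kilobase of exon, HK1 made up 51.4, 51.7 and 50.6% of the summed level of the pair in the control libraries and 45.8, 45.7 and 44.0% with miR-34a. By this scaling HK1 was the higher of the pair in each control library and the lower in each miR-34a library. The lengths are unions of all annotated exons (6296 nt for HK1 and 6064 nt for HK2). With shares so near to equal, which gene ranks higher depends on the lengths used.

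GPI, which converts glucose 6-phosphate to fructose 6-phosphate, read 386, 389 and 399 CPM in the controls and 389, 374 and 379 CPM with miR-34a. Its log2 fold change was -0.04 (95% interval -0.18 to 0.09), although its 3′ UTR holds a 7mer-A1. The HK1 estimate of -0.25 lies outside that interval, but the 95% interval of HK1 (-0.38 to -0.11) overlaps it. The difference between these genes was not tested.

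Phosphofructokinase commits sugar to glycolysis, and none of its 3 subunit genes passed. PFKL, PFKM and PFKP had log2 fold changes of -0.12, 0.08 and -0.01, with 95% intervals that together ran from -0.26 to 0.22. In length-scaled level the subunits were of the same order, PFKL making up 39.8%, PFKM 31.0% and PFKP 29.2% in the controls. The coding sequences of PFKL and PFKM each carry a 7mer-m8, shown because the windows of these paralogs resemble each other and neither gene was called.
PFKL coding: gaggtcatcgatgccatcaccacCACTGCC
PFKM coding: gaaattgtagatgccatcactacCACTGCC

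These lie at chr21:44313132-44313138 in exon 5 and at chr12:48133469-48133475 in exon 9, both on the plus strand. Counted by gene, 10 of the 30 classed genes had a coding match (33.3%, against 27.7% of all classed genes). Of the 8 with a coding match and no 7mer or 8mer in the 3′ UTR (PFKL, PFKM, ALDOC, GAPDH, PGK1, ENO2, HIF1A and LDHB), none fell and none rose with edgeR, with log2 fold changes from -0.21 to 0.28; GAPDH alone had an unadjusted p under 0.05 and passed with DESeq2.

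Aldolase splits fructose 1,6-bisphosphate, and the value of ALDOA is uncertain. ALDOA read 22.2, 21.6 and 20.1 CPM in the controls and 15.3, 17.2 and 16.3 CPM with miR-34a. The groups were apart, and the log2 fold change came to -0.39 with an SE of 0.09 (edgeR, adjusted p = 0.0058). However, 42.3% of its exonic length is shared with a same-strand read-through gene, ENSG00000285043, and its length-scaled level of 5.43 lay far under the 376 of TPI1, the next enzyme of the pathway. How reads shared by both genes were counted is not given in the sources used here. The read-through gene went the other way, from 1.55, 2.23 and 2.36 CPM to 3.22, 3.56 and 4.11 CPM (log2 fold change 0.82 ± 0.20, adjusted p = 0.0078). With the counts of both summed, the log2 fold change of ALDOA was -0.23 and the call was lost (adjusted p = 0.097). ALDOC, the brain-type aldolase, read 5.60 to 7.53 CPM in the controls and 7.63 to 8.62 CPM with miR-34a and did not pass (0.28 ± 0.14, adjusted p = 0.21).

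TPI1, which interconverts the triose phosphates made by aldolase, fell. It read 912, 1115 and 1018 CPM in the controls and 862, 797 and 763 CPM with miR-34a. The groups did not overlap, but the lowest control and the highest miR-34a library, both replicate 1, lay close together. The log2 fold change came to -0.33 with an SE of 0.08 (edgeR, adjusted p = 0.0044), and the call held with any single library left out (adjusted p 0.00016 to 0.033). TPI1 is the only gene of the 5 that fell whose 3′ UTR held a 6mer and nothing stronger.

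**Figure D2:**
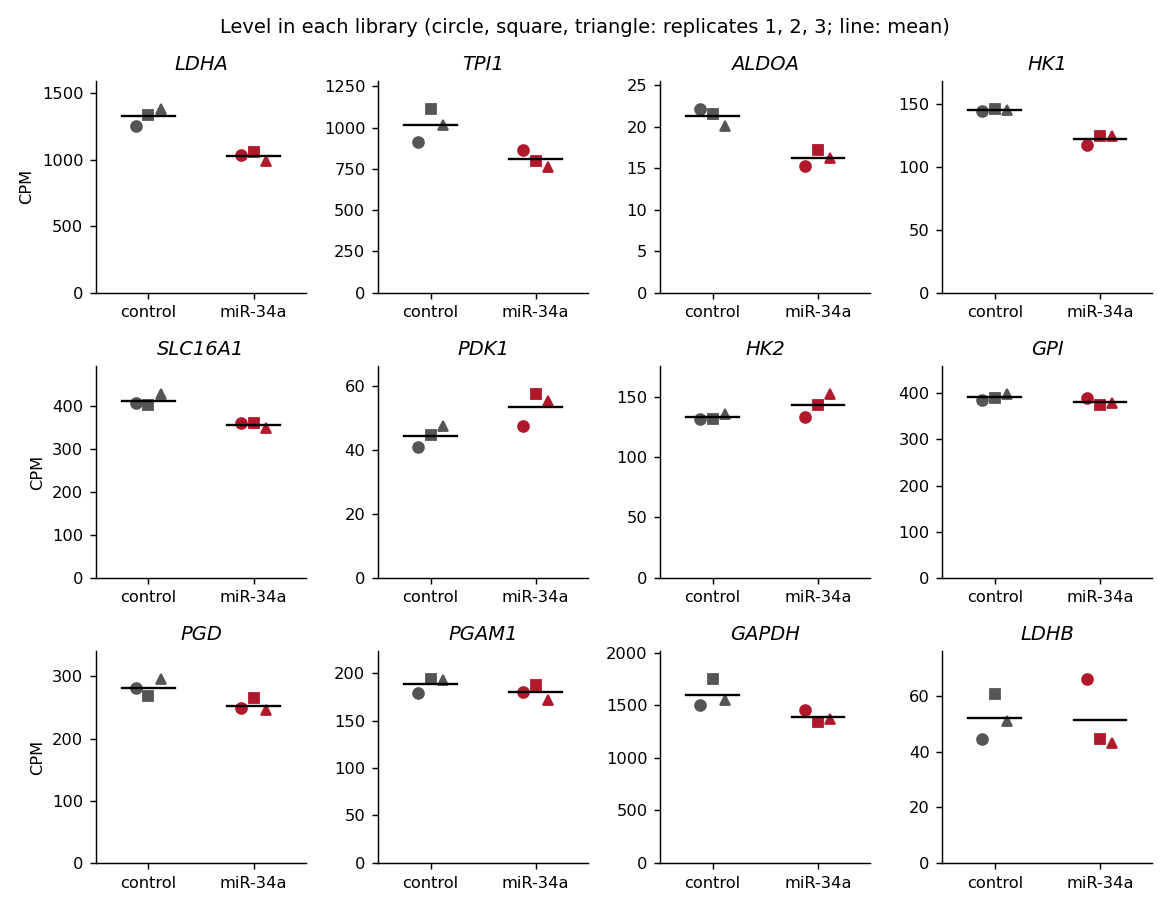
CPM (y axis, from 0) of 12 genes in each control (grey) and miR-34a (red) library, with the group mean as a line. LDHA, TPI1, ALDOA, HK1 and SLC16A1 are lower and PDK1 higher in the miR-34a libraries without overlap, HK2, GPI, PGAM1 and LDHB overlap, and PGD and GAPDH are lower without overlap but did not pass.

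Lower glycolysis, from GAPDH to pyruvate kinase, held the most abundant transcripts of the list and no gene that passed with edgeR. By unadjusted p, 2 of the 6 lay under 0.05 (GAPDH and ENO1), and 1 passed with DESeq2 (GAPDH). GAPDH, often used as a reference gene, read 1507, 1753 and 1551 CPM in the controls and 1452, 1342 and 1370 CPM with miR-34a. All miR-34a libraries were below all controls. Its log2 fold change came to -0.21 with an SE of 0.07 (edgeR, adjusted p = 0.064), so it lay just outside the threshold. GAPDH passed when control replicate 1 was left out (adjusted p = 0.021), under DESeq2 (adjusted p = 0.030) and when low counts were kept (edgeR, adjusted p = 0.039). Its coding sequence holds a pair of 8mers and its 3′ UTR none.

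ENO1, the main enolase, read 2353, 2566 and 2397 CPM in the controls and 2310, 2147 and 2160 CPM with miR-34a. These groups were apart too, with a log2 fold change of -0.15 ± 0.07 that did not pass (adjusted p = 0.20). PGAM1, which moves the phosphate of 3-phosphoglycerate, has a 7mer-m8 but read 179, 194 and 193 CPM in the controls and 180, 188 and 172 CPM with miR-34a. Its groups overlapped (log2 fold change -0.07, 95% interval -0.21 to 0.07). PGK1 and PKM, the ATP-making kinases of the pathway, had log2 fold changes of -0.02 (-0.16 to 0.12) and -0.05 (-0.19 to 0.09). Counts per gene cannot separate the PKM1 and PKM2 splice forms. The neuronal enolase ENO2, at 1.33% of the length-scaled level of the pair with ENO1, had a log2 fold change of 0.01.

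**Figure D3:**
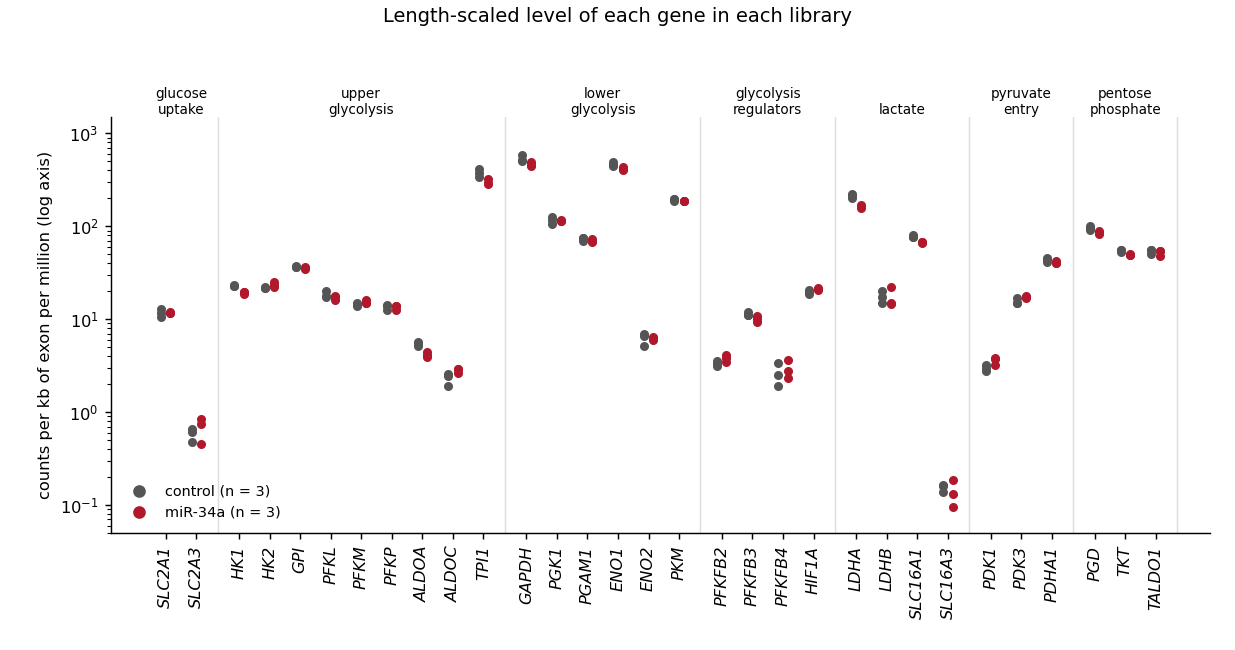
Length-scaled level (CPM per kilobase of exon, log axis) of each gene in each control (grey) and miR-34a (red) library, grouped by role. GAPDH, ENO1 and TPI1 are the most abundant and SLC16A3 and SLC2A3 the least, and within most genes the groups lie close together.

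Lactate dehydrogenase A, which favours the conversion of pyruvate to lactate, had the lowest adjusted p of the list. LDHA read 1252, 1337 and 1383 CPM in the controls and 1032, 1059 and 987 CPM with miR-34a. The groups were well apart, with means of 1324 ± 66.5 and 1026 ± 36.5 CPM (SD, n = 3), a 1.29-fold fall. The log2 fold change came to -0.37 with an SE of 0.07 (95% interval -0.51 to -0.23; edgeR, adjusted p = 0.00054). It held under all 12 alternatives, with an adjusted p of at most 0.0072.

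LDHB, the isozyme that favours the reverse reaction, read 44.6, 60.7 and 51.1 CPM in the controls and 66.2, 44.7 and 43.2 CPM with miR-34a. The groups overlapped fully (log2 fold change -0.03, 95% interval -0.27 to 0.22), and miR-34a replicate 1 stood above all other libraries. LDHB shares 33.4% of its exonic length with a same-strand gene listed at or near 0 counts, so its level is uncertain like that of ALDOA. By the counts as deposited, LDHA made up 93.1, 91.4 and 92.9% of the length-scaled level of the pair in the controls and 88.2, 91.9 and 91.6% with miR-34a.

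SLC16A1, the proton-coupled lactate transporter MCT1, read 406, 403 and 428 CPM in the controls and 360, 361 and 348 CPM with miR-34a. Every miR-34a library was lower than every control library, and the log2 fold change came to -0.21 with an SE of 0.07 (edgeR, adjusted p = 0.036). Leaving out control replicate 3 ended this call (adjusted p = 0.19), as did leaving out miR-34a replicate 1, 2 or 3 (0.076, 0.12 and 0.12) and keeping low counts (0.052). SLC16A1 shares 3.29% of its exonic length with SLC16A1-AS1 on the opposite strand, which stood at 31.3 CPM in the controls. SLC16A3, the exporter MCT4 of strongly glycolytic cells, stood at 0.856 to 1.67 CPM and gave a wide 95% interval (-0.76 to 0.43). SLC16A1 made up 99.8% of the length-scaled level of the pair in both groups.

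Entry of pyruvate into the mitochondria is held back by the pyruvate dehydrogenase kinases, and the only gene of the list that rose was among them. PDK1 read 41.0, 44.5 and 47.3 CPM in the controls and 47.3, 57.5 and 55.3 CPM with miR-34a. The highest control and the lowest miR-34a library were almost equal. The log2 fold change came to 0.27 with an SE of 0.08, a 1.21-fold rise (edgeR, adjusted p = 0.031). Leaving out control replicate 1 or 2 ended the call (adjusted p = 0.078 and 0.087), as did leaving out miR-34a replicate 2 or 3 (0.19 and 0.093). PDK1 was not classed, since the transcript with its longest coding sequence ends at the stop codon; across its 3 coding transcripts, with a 3′ UTR of up to 12700 nt, no match of any kind was found.

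PDK3 had a log2 fold change in the same direction that did not pass (0.15 ± 0.07, adjusted p = 0.20), from 73.2, 84.0 and 74.1 to 88.7, 85.0 and 83.2 CPM. PDHA1, the catalytic subunit of pyruvate dehydrogenase that these kinases phosphorylate, had -0.09 (95% interval -0.23 to 0.05), with 21.3% of its exonic length shared with MAP3K15 on the opposite strand. MAP3K15 stood at 11.1 CPM in the controls, PDHA1 at 196 CPM.

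None of the 4 regulators passed with edgeR or DESeq2, and 2 had an unadjusted p under 0.05 (PFKFB2 and PFKFB3). PFKFB2, PFKFB3 and PFKFB4 make and break fructose 2,6-bisphosphate, the activator of phosphofructokinase, and had log2 fold changes of 0.19 ± 0.08, -0.17 ± 0.07 and 0.14 ± 0.15 (SE). PFKFB3, whose enzyme strongly favours synthesis, read 68.1, 67.2 and 72.9 CPM in the controls and 61.5, 56.6 and 66.2 CPM with miR-34a, lower in each miR-34a library (adjusted p = 0.14). PFKFB2 shares 3.09% of its exons with YOD1 on the opposite strand, which rose (log2 fold change 0.58, adjusted p = 1.7e-06), so reads from the shared stretch cannot be assigned to either gene. HIF1A read 107, 97.3 and 101 CPM in the controls and 106, 112 and 109 CPM with miR-34a (0.10, 95% interval -0.04 to 0.24).

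The listed pentose phosphate enzymes had log2 fold changes below 0, and none of the 3 was called with edgeR or DESeq2; 2 had an unadjusted p under 0.05 (PGD and TKT). PGD, which makes NADPH by oxidising 6-phosphogluconate, read 282, 268 and 296 CPM in the controls and 248, 265 and 245 CPM with miR-34a. The groups were apart by a small margin, and the log2 fold change of -0.16 ± 0.07 did not pass (adjusted p = 0.15) despite the 8mer in its 3′ UTR. TKT, the transketolase that links this pathway back to glycolysis, read 502, 526 and 523 CPM and then 475, 464 and 466 CPM (-0.14 ± 0.07, adjusted p = 0.18). TALDO1, its partner transaldolase, had -0.05 (95% interval -0.20 to 0.09).

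Set against their seed matches, 4 of the 7 genes with a 7mer or 8mer fell (LDHA, ALDOA, HK1 and SLC16A1) and 3 did not pass (PGD, PGAM1 and GPI). Of the 23 other classed genes, 1 fell (TPI1). Background shares that fell were 4.87% of tested genes with no match and 10.0% of those with a 6mer at most. The ALDOA call was lost when the counts of its read-through gene were added. Over all tested genes with a 7mer or 8mer, 19.6% fell and 4.57% rose, and 23.1% fell among those whose mean log2 CPM reached 5. The median log2 fold change of the 7 was -0.21, against -0.08 over all 2714 tested genes with such a match. That of the genes of the list with no match was -0.02, against 0.01. Of the 5 genes published as targets, LDHA and HK1 fell, PDK1 rose, and HK2 and GPI did not pass.

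**Figure D4:**
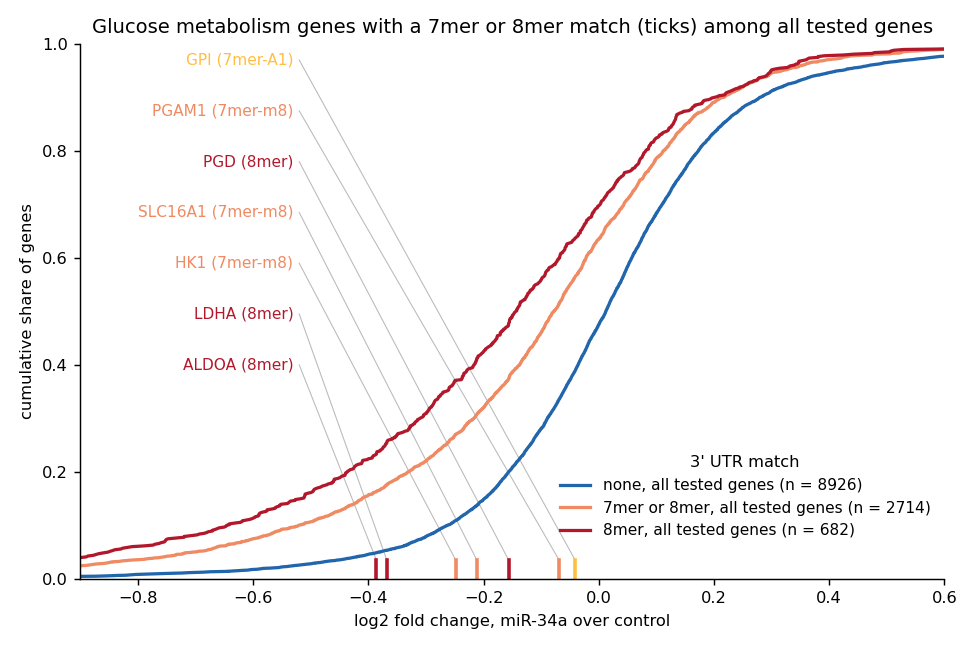
Cumulative share of genes (y axis) against log2 fold change (x axis) for all tested genes with no match (blue, n = 8926), a 7mer or 8mer (orange, n = 2714) or an 8mer (red, n = 682) in the 3′ UTR; ticks mark the 7 glucose metabolism genes with a 7mer or 8mer. All 7 ticks lie below 0, from ALDOA and LDHA to GPI.

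The choice of transcript bore on which genes counted as matched. When a match in the 3′ UTR of any coding transcript was accepted, 9 genes had a 7mer or 8mer instead of 7. PFKM gained an 8mer, at chr12:48146268-48146275, from 2 of its 11 coding transcripts, and PFKFB3 a 7mer-m8, at chr10:6234966-6234972, from 3 of 9. Which of these transcripts the cells use cannot be read from counts per gene.
PFKM 8mer, alternative 3′ UTR: tgctggctgtctgaaaaattgtCACTGCCA
PFKFB3 7mer-m8, alternative 3′ UTR: gggagatactatagaaaggagaaCACTGCC

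Several of these genes have processed copies elsewhere in the genome that can draw reads. Copies named after GAPDH number 65 in the count table, and together they held 0.424% of the counts of GAPDH in the controls and 0.485% with miR-34a. The copies of TPI1 held 0.557 and 0.667%, and those of LDHA 0.0798 and 0.0514%. Shares were largest for SLC2A3 (4.79% in the controls and 3.23% with miR-34a) and LDHB (1.23 and 1.33%). How reads that map to several places were treated is not given in the sources used here. Besides such copies, the exons of many listed genes overlap those of others, and the library kit does not mark strand. In all, 11 of the 31 overlap the exons of a tested gene, which lies on the opposite strand for 8.

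Of 105 other tested genes of the same and adjoining pathways, from lists outside the 31, 6 fell and 4 rose. Over all tested genes, 6.7% fell and 5.38% rose. RPIA, the ribose 5-phosphate isomerase of the pentose phosphate pathway, fell with a larger fold change than any of the 31. It read 50.2, 59.1 and 62.3 CPM in the controls and 38.3, 34.1 and 32.7 CPM with miR-34a. The groups were well apart, and the log2 fold change came to -0.71 with an SE of 0.09 (edgeR, adjusted p = 1.5e-06). Its 3′ UTR holds a 7mer-A1 at chr2:88750757-88750763 on the plus strand, in exon 9, 679 nt after the stop codon.
RPIA 7mer-A1: gttgaccagaaatgcttgccagtACTGCCA

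None of the 6 tested further glycolytic isozymes and none of the 11 tested further genes of pyruvate dehydrogenase, its regulators and the pyruvate carrier was called with edgeR or DESeq2 or had an unadjusted p under 0.05. ADPGK and BPGM, the most abundant of the first, had -0.06 and -0.004, and DLD and DLAT, of the second, 0.13 and 0.06. Of 11 further sugar and lactate transporter genes, SLC2A11 rose (0.48 ± 0.10, adjusted p = 0.0024) and none fell.

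Calls among genes that control glycolysis or answer to HIF are set against the 6.7% of all tested genes that fell and the 5.38% that rose. Of 13 tested control genes, 4 had an unadjusted p under 0.05 and 1 fell with edgeR and with DESeq2, MLXIPL, the glucose-responsive factor ChREBP (log2 fold change -0.33 ± 0.10, adjusted p = 0.025). That call ended when control replicate 2 or 3 was left out (adjusted p = 0.11 and 0.082), or miR-34a replicate 1 or 3 (0.065 and 0.11). Of 13 HIF targets outside glycolysis, 1 rose, the histone demethylase KDM3A (0.26 ± 0.07, adjusted p = 0.014), with a list median of 0.09. In that list 7 had an unadjusted p under 0.05 (BNIP3, DDIT4, P4HA1, PLOD2, KDM3A, INSIG2 and MXI1), and 2 passed with DESeq2 (KDM3A and INSIG2). The share of all tested genes with an unadjusted p under 0.05 is not given here, so counts by unadjusted p have no background. The KDM3A call ended when control replicate 2 was left out (adjusted p = 0.073), or miR-34a replicate 2 or 3 (0.050 and 0.067). Among the 28 genes of the 31 with a promoter in RefSeq (GRCh38.p14, 250 bases before to 50 after the start), 16 held ACGTG, the core of HIF binding motifs, on either strand (57.1%, against 24.9% of 27305 promoters). LDHA, TPI1, ALDOA and PDK1 were among these 16, as were HK2, GPI, PGD and GAPDH. The 27305 promoters are those of all genes, tested here or not, whereas all 28 belong to tested genes. A share among the promoters of tested genes is not given here.

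**Figure D5:**
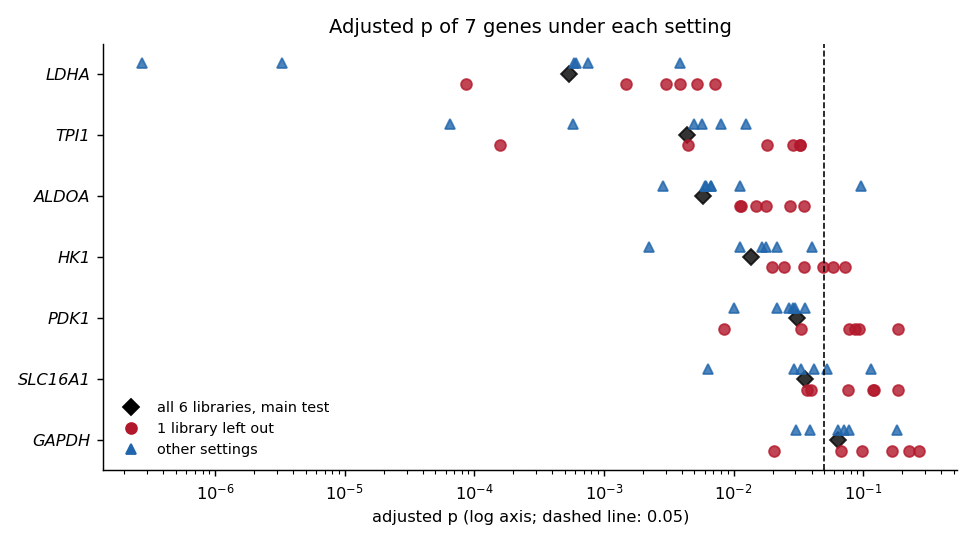
Adjusted p (x axis, log scale, dashed line at 0.05) of 7 genes with all libraries (black), with 1 library left out (red) and under the other settings (blue). LDHA and TPI1 stay left of the line throughout, ALDOA crosses it in 1 setting, and HK1, PDK1, SLC16A1 and GAPDH cross it in several.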

How the data were processed

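The authors deposited a table of raw counts, with Ensembl genes in rows and libraries in columns, not normalized. Per the submitters' processing notes, STAR 2.7.11a, featureCounts, Subread 2.0.3, edgeR 3.42.4 and GRCh38 were named; the sources used here do not give the annotation release, strand setting or treatment of multi-mapping reads. Per the labels, libraries were made with TruSeq RNA v2 chemistry and described as biological replicates.

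Genes were kept with filterByExpr (minimum count 10, minimum total 15), and scaled by TMM factors (0.981 to 1.02). The model had 1 term, the group, and used edgeR 4.0.16 (quasi-likelihood, R 4.3.3). P-values were adjusted over all 17427 genes by Benjamini-Hochberg, with a threshold of 0.05. CPM uses the TMM library size. Length-scaled levels divide by the union of GENCODE 29 exons, which understates genes with long rare exons. The chi-square per degree of freedom between libraries of a group was 7.64 to 14.3, so none looked deposited in duplicate. The test was checked on simulated counts. Symbols were matched for 62541 of the 63140 identifiers.

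The genes, lists and naming rule were chosen with earlier results of these data known. Values per library are given for genes of the 31 past the threshold, with a 7mer or 8mer, or published as targets, and for families compared; from each other list, up to 3 called genes or the 2 most expressed. GAPDH, TKT, HIF1A, the genes that overlap members and the HIF targets other than KDM3A were added after their values were seen. Alternatives were DESeq2 1.42.0, its size factors, library size only, no filter, 1 CPM in 3 libraries, a replicate block, each library left out, same-strand overlapping genes summed, and other site definitions; of these, the count of genes with overlapping genes summed was chosen after seeing the data. Results for some genes of the lists are not reported here.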

Additional observations from a re-analysis of the deposited data

How the results depend on the processing

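Over the 31 genes and their alternatives, 359 of 375 values stayed on their side of the threshold with no called gene changing sign, 13 lost a call (HK1, ALDOA, SLC16A1 and PDK1) and 3 gained one (all GAPDH). With libraries left out in turn, 3 to 6 of the 31 genes fell and 0 to 1 rose. Of all tested genes, 727 to 1394 fell and 525 to 1287 rose. Of the 105 tested genes in the other lists, 2 to 8 fell and 3 to 6 rose, against 6 and 4 with all libraries. With no filter, 7 of those genes rose. Adding the replicate number as a block left 4 of the 31 lower and 1 higher (SLC16A1 adjusted p = 0.12), 1023 and 807 of all genes, and 3 of the other lists' genes lower. Deviations of same-numbered libraries from their group means had correlations of -0.03, 0.02 and -0.08. Control replicate 1 correlated best with miR-34a replicate 3 (0.09). Whether the numbers pair the libraries was not tested, and a small shared effect would not show in these correlations. The causes of these shifts were not tested. Counting 6mers too gave 8 genes with a match. With 3 libraries a group, an interval for an abundant gene spanned about 0.14 on each side on the log2 scale, and SLC16A3 and SLC2A3 are limited by their few counts.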

Other observations

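Branches that leave glycolysis held calls in both directions, as did the tested genes as a whole, of which 6.7% fell and 5.38% rose. PYGB, the brain-type glycogen phosphorylase, fell from 76.5, 80.5 and 77.7 to 62.7, 56.3 and 56.6 CPM (log2 fold change -0.42 ± 0.07, adjusted p = 0.00017, edgeR). UGP2, which makes UDP-glucose for glycogen, rose from 55.4, 49.2 and 60.7 to 70.0, 71.5 and 64.1 CPM (0.31 ± 0.08, adjusted p = 0.0088), although leaving out control replicate 2 ended the call (adjusted p = 0.077), as did leaving out miR-34a replicate 2 (0.061). These were the only calls among 13 tested genes of gluconeogenesis and glycogen. GFPT1, the entry enzyme of the hexosamine pathway, rose from 93.8, 81.3 and 86.7 to 114, 110 and 122 CPM (0.40 ± 0.07, adjusted p = 0.00033), with a 7mer-m8 in its 3′ UTR. SHMT1, a serine hydroxymethyltransferase with a 7mer-m8, fell (-0.24 ± 0.07, adjusted p = 0.020), a call that ended when control replicate 3 was left out (adjusted p = 0.070), or miR-34a replicate 2 or 3 (0.11 and 0.071). They were the only calls among 10 genes of the hexosamine and serine branches. Of 19 tricarboxylic acid cycle genes, 1 fell, the malate dehydrogenase MDH2 (-0.22 ± 0.07, adjusted p = 0.040), and its call ended when control replicate 2 or 3 was left out (adjusted p = 0.11 and 0.17), or miR-34a replicate 2 or 3 (0.13 and 0.17).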
